A study of Mus musculus with 6 samples.

Results

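Expression of 8 genes that make, store, take up, break down or sense serotonin was read in intestinal tissue of mice given cold or room-temperature water. They were the rows of the deposited transcript table named Tph1, Ddc, Slc18a1, Slc6a4, Maoa, Maob, Htr4 and Htr3a, 8 of its 55267 gene names and 38 of its 142604 transcripts. Mice received 1 ml of water into the stomach daily over 14 days and were kept at 22 °C. The cold water group (3 libraries) was dosed at 8 am with water of 0 to 4 °C, and the control group (3 libraries) at 9 am with water of 20 to 25 °C, so water temperature and hour of gavage cannot be told apart. The labels give no strain, age or genotype, and do not say whether each library came from its own animal, so p-values measure only the spread between these libraries. Each library was made from total RNA depleted of ribosomal RNA and held about 19306900 to 20894800 fragments.

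Serotonin of the gut is made mainly by enterochromaffin cells, scattered hormone cells of the epithelium. Tph1 hydroxylates tryptophan, the rate-limiting step, Ddc removes the carboxyl group, and the transporter encoded by Slc18a1 loads serotonin into granules. Released serotonin acts on receptors of nerves, muscle and epithelium, Htr3a and Htr4 among them. It is cleared by the transporter encoded by Slc6a4, which enterocytes carry, and oxidised by the mitochondrial enzymes Maoa and Maob. The comparison asks whether repeated intake of cold water went with other RNA levels of this cycle.

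The label of the samples gives proximal jejunum whereas the design text gives colon. All 12 small intestinal enterocyte markers reached 1 FPKM (fragments scaled to transcript length and library size) in each library, with a median gene at 1589 to 2173 FPKM. Of 10 colon markers, 2 to 4 did, and Scnn1g, Hoxd13 and Prdx6b had a count of 0 in all 6 libraries. The 10 colon markers summed to 69.3 to 91.9 FPKM in cold water and 69.6 to 93.2 FPKM in control, so some were expressed. Enteroendocrine genes were present in part, as 14 to 18 of 29 such markers stood at or above 1 FPKM, depending on the library. The middle gene of this list lay between 0.782 and 2.57 FPKM. Of its genes, chromogranin A (Chga) averaged 24.5 FPKM and chromogranin B (Chgb) 40.8 FPKM. In such tissue libraries, fewer cells of a type and less RNA per cell cannot be told apart.

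The sequences upstream of Slc6a4 and of both starts of Tph1 are shown because Slc6a4 is the tested gene whose groups did not overlap and because Tph1 was read from a pair of starts, which lie 5160 bases apart. Each is the 250 bases before a transcription start in RefSeq (GRCm38.p6), read 5′ to 3′ on the gene's strand. Capitals mark matches on either strand to the TATA box TATAAA, the CCAAT box CCAAT and the GC box GGGCGG.
Tph1 upstream start (chr7:46672538-46672787, minus strand): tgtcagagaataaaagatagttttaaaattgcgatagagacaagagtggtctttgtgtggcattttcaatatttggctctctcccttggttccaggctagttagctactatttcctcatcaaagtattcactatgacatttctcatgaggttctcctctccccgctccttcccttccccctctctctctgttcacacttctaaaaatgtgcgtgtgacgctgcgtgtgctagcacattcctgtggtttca
Tph1 downstream start (chr7:46667378-46667627, minus strand): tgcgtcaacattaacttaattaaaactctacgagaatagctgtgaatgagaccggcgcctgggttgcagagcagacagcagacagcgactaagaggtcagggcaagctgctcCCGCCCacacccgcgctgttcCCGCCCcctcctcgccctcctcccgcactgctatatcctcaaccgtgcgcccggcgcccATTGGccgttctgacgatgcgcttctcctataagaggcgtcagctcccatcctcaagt
Slc6a4 start (chr11:76998347-76998596, plus strand): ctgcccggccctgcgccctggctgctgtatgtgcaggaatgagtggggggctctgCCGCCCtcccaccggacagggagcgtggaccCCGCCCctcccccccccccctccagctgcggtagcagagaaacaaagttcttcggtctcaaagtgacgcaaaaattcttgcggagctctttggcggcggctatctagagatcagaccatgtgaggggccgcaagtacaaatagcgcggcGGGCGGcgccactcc
The upstream window of Tph1 held none of these motifs and had 43.6% G and C. The downstream window had 58.8% G and C, with a GC box beginning 138 and another 117 bases before the start and a CCAAT box 58 bases before it. That of Slc6a4 had 64.8% G and C, with 3 GC boxes beginning 195, 164 and 15 bases before the start. Over all 32817 such windows, 12.4% held TATAAA, 33.8% CCAAT and 32.7% GGGCGG. E boxes (CANNTG), held by 66.2% of windows, were matched 2 times at Slc6a4 and not at either Tph1 start, and no matches overlapped. These matches describe the letters alone. RefSeq windows were also found for Ddc and Maoa.

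The 8 genes spanned a wide range of levels. Maoa was highest with a mean of 162 ± 23.3 FPKM (SD, n = 6 libraries), above Ddc with 71.4 ± 10.9, Maob with 62.5 ± 10.9 and Slc6a4 with 38.8 ± 10.1 FPKM. Slc18a1 with 2.93 ± 0.462, Htr3a with 2.56 ± 1.67 and Tph1 with 2.28 ± 0.770 FPKM followed, and Htr4 was lowest with 0.267 ± 0.0891 FPKM. Ddc and Maob overlapped in mean ± SD, but Ddc was above Maob in each of the 6 libraries. Slc18a1, Htr3a and Tph1 also overlapped, and their order changed between libraries. The first 7 had a mean of at least 1 FPKM and were tested. Htr4 did not, and neither did any single isoform of Tph1.

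None of the 7 tested genes passed at a false discovery rate of 0.05 by edgeR's quasi-likelihood fit, adjusted over all 12939 genes tested, where 0.0386% of genes passed and 0.0232% passed as lower in cold water. At an unadjusted edgeR p under 0.05 stood 1 of the 7, Slc6a4, where 5.01% of all genes did and 2.13% as lower in cold water. In Slc6a4 alone among the 7 the libraries did not overlap, with cold water below control. Over all genes 10.5% did not overlap, 5.22% with cold water lower and 5.3% with cold water higher. A count of 1 in 7 is too small to read against these shares. The log2 difference, cold water minus control, was below 0 for 6 of the 7, all but Tph1, against 45.8% of all genes. Of those 6, Ddc, Slc18a1 and Maoa turned above 0 without control 3, at 0.063, 0.044 and 0.13, and Htr3a reached 0.25 with 1 library left out (cold water 3 or control 2 turned it). The median was -0.16, against 0.029 over all genes.

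Of the 38 transcripts of the 8 genes, 10 reached the level for the test and 7 had a count of 0 in all 6 libraries. None of the 10 passed edgeR's adjusted test, where 0.0285% of 21041 transcripts passed and 0.0238% as lower. At an unadjusted edgeR p under 0.05 stood 1, where 4.73% of transcripts did and 2.15% as lower. Groups did not overlap for 2, both lower in cold water, where 11.1% of transcripts did not overlap, 5.39% lower and 5.67% higher. The log2 difference was below 0 for 9 of the 10, against 48.0% of all transcripts. Ddc gave 4 of the 10 and Slc6a4 gave 2, so these are not separate readings. Some lower isoforms of Ddc, and those of Htr3a, Maoa and Slc18a1, turned above 0 with 1 library left out. Those of Slc6a4 and Maob stayed below 0.

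**Figure D1:**
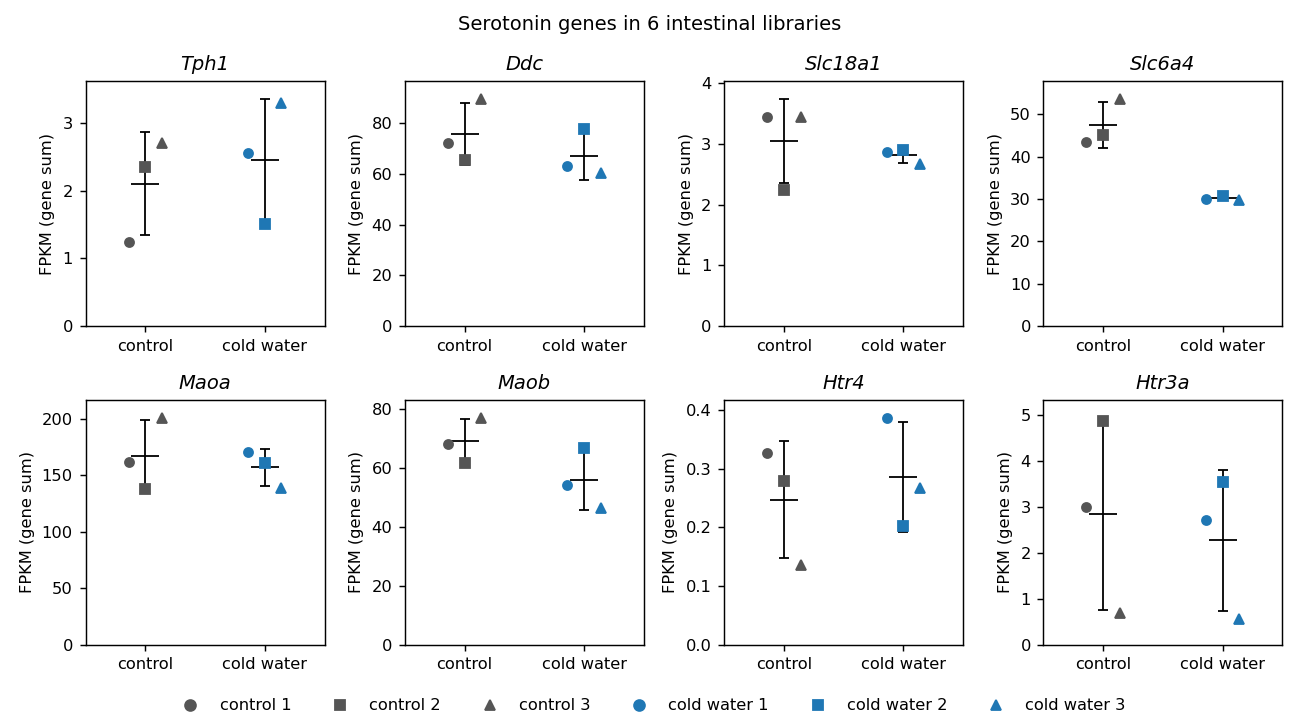
Summed FPKM of each gene (vertical axes, linear from 0) in the 3 control and 3 cold water libraries, with the group mean and SD as a bar and whiskers. Slc6a4 is at 29.8 to 30.6 FPKM in cold water and at 43.5 to 53.6 FPKM in control, and in the other 7 genes the groups overlap.

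Uptake held the tested gene whose groups did not overlap. Slc6a4 (ENSMUSG00000020838, chromosome 11, 76998603 to 77032340, plus strand) encodes the serotonin transporter, which takes up released serotonin. Its level was 29.9, 30.6 and 29.8 FPKM in cold water 1, 2 and 3 and 43.5, 45.2 and 53.6 FPKM in control 1, 2 and 3. The groups did not overlap, and the cold water libraries were close to each other. On the scale of the test, counts scaled to library size (CPM), the means were 74.4 ± 6.003 in cold water and 117 ± 17.4 in control (SD, n = 3), 1.57-fold lower in cold water. Slc6a4 thus differed by -0.65 on the log2 scale (standard error 0.15), with an unadjusted 95% interval of -1.01 to -0.28. Its edgeR p was 0.00414, the 48th smallest of 12939, and did not pass after adjustment (adjusted p = 0.878). An exact two-sided permutation test gave p = 0.1, the smallest that 3 against 3 libraries can give. Any gene whose groups do not overlap gets this value, so it adds nothing to the lack of overlap.

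All 3 Slc6a4 isoforms with counts averaged lower in cold water, and the transcript that spans the gene held 74.4 ± 6.45% of its FPKM in cold water and 74.2 ± 6.21% in control (SD, n = 3). This transcript, ENSMUST00000021195, with all 1890 coding bases, had 22.4, 24.7 and 20.2 FPKM in cold water and 34.4, 34.4 and 36.0 FPKM in control. No library of either group came near the other. Its log2 difference was -0.63 (standard error 0.14, edgeR adjusted p = 0.797 over 21041 transcripts). It begins within 150 bases of the Slc6a4 start printed above, and transcripts beginning there made up 87.8 to 94.2% of the gene's counts in a library. ENSMUST00000108402, which shares its coding exons and has 1 further untranslated exon, had a count of 0 in all 6 libraries. The short ENSMUST00000129572, with 643 bases, had 7.13, 5.78 and 8.81 FPKM in cold water and 7.87, 9.49 and 16.02 FPKM in control, which overlapped. Its log2 difference was -0.62 with a standard error of 0.44 (edgeR adjusted p = 0.980). The retained-intron transcript ENSMUST00000137819 had 0.389, 0.183 and 0.820 FPKM in cold water and 1.18, 1.297 and 1.54 FPKM in control, without overlap, and was too low to test. The antisense gene Gm12343 overlaps Slc6a4 and had at most 0.673 FPKM. The genes 1700042O10Rik, Gm15716 and Gm32335, opposite to Ddc, Slc18a1 and Htr3a, had at most 0.0805 FPKM, a count of 0 in all libraries and at most 0.0201 FPKM.

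**Figure D2:**
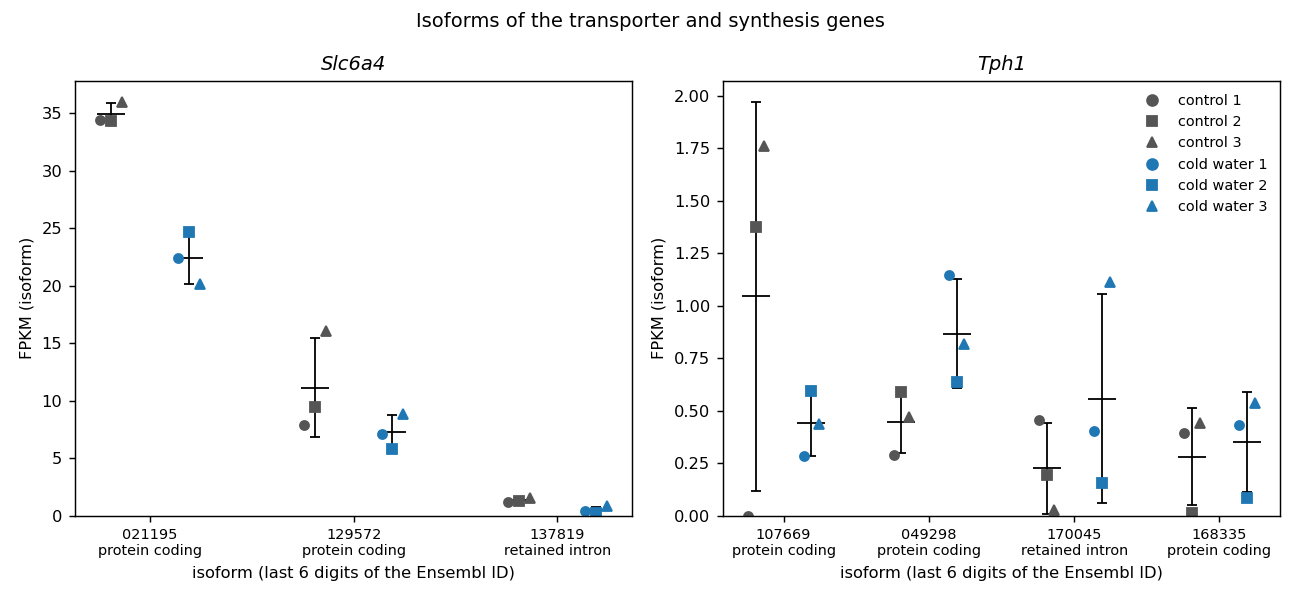
FPKM of the Slc6a4 and Tph1 isoforms (vertical axes, linear from 0) by library, with group mean and SD. The main Slc6a4 isoform ENSMUST00000021195 is at 20.2 to 24.7 FPKM in cold water and 34.4 to 36.0 FPKM in control, and every Tph1 isoform is under 2 FPKM.

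Enterocyte markers overlapped between the groups. The 12 markers summed to 38768 to 58547 FPKM in cold water and 36757 to 50844 FPKM in control, and 0 of the 12 passed the test. Per 1000 FPKM of these markers, a scale chosen after the data were seen, Slc6a4 was 0.772, 0.582 and 0.509 in cold water and 0.943, 1.23 and 1.05 in control. The groups did not overlap on this scale either, but it reuses the same Slc6a4 values and is no separate support. The marker sum averaged 49986 FPKM in cold water and 44573 FPKM in control, which by itself lowers cold water on this scale. The part of enterocyte content in the Slc6a4 values was not tested. Maob overlapped in FPKM and in CPM. On the marker scale it had 1.402, 1.27 and 0.795 in cold water and 1.48, 1.68 and 1.52 in control, without overlap. Maoa and Ddc overlapped. The marker sum was highest in cold water 3 and lowest in control 2. How many of all genes do not overlap on this scale was not counted. Platelets also carry the serotonin transporter. Among 7 platelet genes 2 to 3 were at or above 1 FPKM, and Treml1 had a count of 0 in all 6 libraries. Their sum was 5.197 to 12.1 FPKM in cold water and 5.98 to 18.8 FPKM in control.

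Other uptake routes are organic cation transporters, which carry serotonin with low affinity. Slc22a3, named after its values were seen, had 0.0842, 0.0566 and 0.0195 FPKM in cold water and 0.267, 0.213 and 0.248 FPKM in control. These groups did not overlap, at levels far below the 1 FPKM needed for the test. The values rest on 7.97, 5.06 and 1.86 fragments in cold water and 24.2, 19.1 and 23.4 in control. The share of genes without overlap at such levels was not counted. Fitted with no filter on low values, the log2 difference of Slc22a3 was -2.22 (edgeR adjusted p = 0.809). DESeq2, which called 85 genes where edgeR called 5, passed it (adjusted p = 0.0472). Slc22a2 had a count of 0 in all 6 libraries.

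Summed by gene, synthesis and storage showed no difference beyond the spread of the libraries. Single isoforms of Tph1 and Ddc, given below, did not overlap between the groups, and none passed. Tph1 (ENSMUSG00000040046, chromosome 7, 46644641 to 46672537, minus strand) had 2.55, 1.503 and 3.30 FPKM in cold water and 1.25, 2.36 and 2.71 FPKM in control. Control 1 was lowest and cold water 3 highest, and the groups overlapped. These levels rest on 41.7 to 149.8 fragments a library. On the log2 scale the difference was 0.36 (standard error 0.45), its interval -0.71 to 1.44 (edgeR adjusted p = 0.946), which spans 0.609-fold to 2.72-fold. Without control 1 the log2 difference was 0.0043, and without control 3 it was 0.68.

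Tph1 was read from a pair of starts. ENSMUST00000049298 from the upstream start and ENSMUST00000107669 from the downstream start share the same 1341 coding bases and differ in their first exon and in the length of the last. The upstream isoform had 1.15, 0.635 and 0.819 FPKM in cold water and 0.289, 0.587 and 0.468 FPKM in control. The groups did not overlap, but cold water 2 and control 2 were close. Among tested transcripts 5.67% did not overlap with cold water higher, and no share was counted at this lower level. The upstream isoform rests on 29.0 to 120 fragments a library. Its split from an isoform with the same coding exons is uncertain. The downstream isoform had 0.286, 0.594 and 0.438 FPKM in cold water and 0, 1.37 and 1.76 FPKM in control. Control 1 was the lowest and control 3 the highest library, with the cold water libraries between them. Of the gene's counts, the upstream isoform took 80.1, 70.1 and 64.1% in cold water and 69.4, 49.5 and 38.4% in control, which overlapped. Counts weigh this longer isoform more. Of the summed FPKM it took 45.0, 42.2 and 24.8% in cold water and 23.2, 24.9 and 17.3% in control, which overlapped as well. Over all libraries the downstream isoform held 32.6% of the FPKM and the upstream isoform 28.9%. Both isoforms were under the level for the test. Fitted with no filter, their log2 differences were 0.93 (edgeR adjusted p = 0.769) and -1.26 (edgeR adjusted p = 0.951). The other named isoforms were the retained-intron ENSMUST00000170045 with 0.0256 to 1.11 FPKM and the short coding ENSMUST00000168335 with 0.0135 to 0.537 FPKM, each resting on at most 12.3 fragments a library. Because they are short, they weigh more in the FPKM sum than in the counts.

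**Figure D3:**
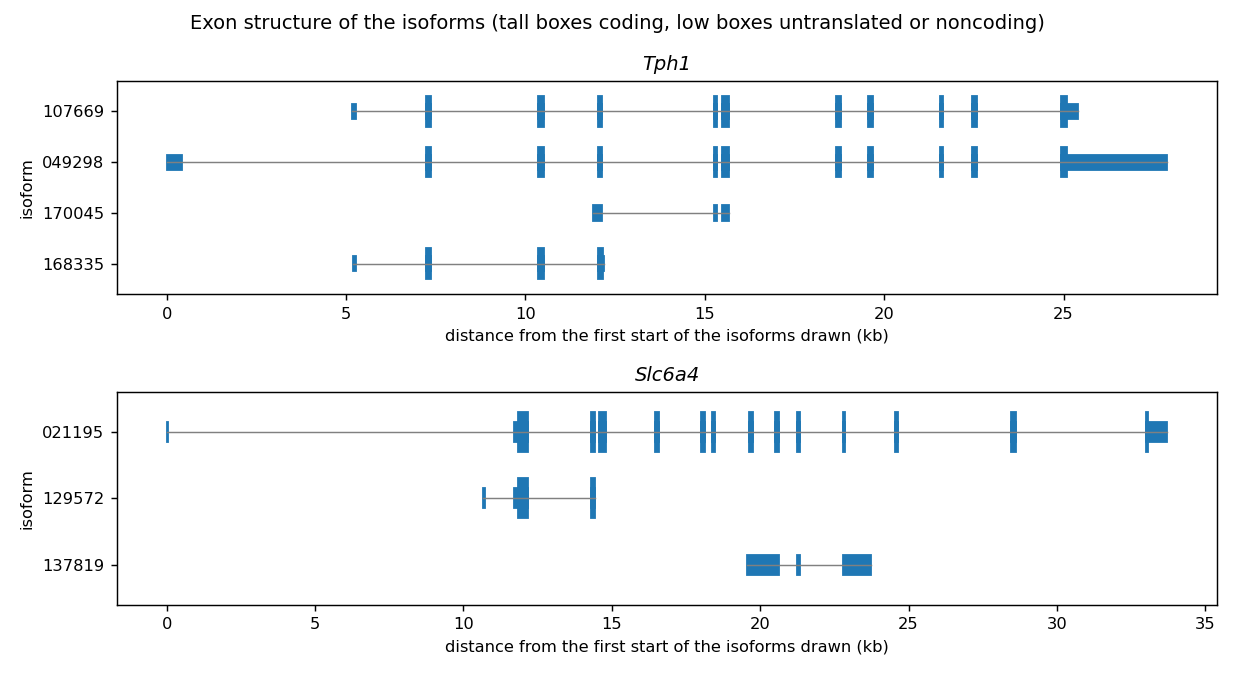
Exons of the named Tph1 and Slc6a4 isoforms against distance in kb from the first start drawn, with coding parts as tall boxes and lines as introns. The Tph1 isoforms ENSMUST00000049298 and ENSMUST00000107669 begin 5160 bases apart and share their coding exons, and the Slc6a4 isoform ENSMUST00000021195 is the only isoform drawn that spans its gene.

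Ddc (ENSMUSG00000020182, chromosome 11, 11814101 to 11898144, minus strand) encodes aromatic amino acid decarboxylase, which many cells besides enterochromaffin cells use. It had 63.3, 77.6 and 60.3 FPKM in cold water and 72.2, 65.7 and 89.5 FPKM in control. The groups overlapped, with control 3 highest. The log2 difference was -0.16 with a standard error of 0.23 (edgeR adjusted p = 0.950). Ddc too has a pair of starts, 7736 bases apart, and the isoforms of the upstream start held 85.0 to 93.4% of its counts. Those of the downstream start held 4.03, 6.39 and 13.1% in cold water and 3.68, 8.06 and 4.17% in control, highest in cold water 3. Among its tested isoforms the processed transcript ENSMUST00000145033 had 5.37, 2.29 and 2.90 FPKM in cold water and 6.14, 5.61 and 5.52 FPKM in control, without overlap (log2 difference -0.71, standard error 0.40, edgeR adjusted p = 0.960). The minor isoforms ENSMUST00000155690 and ENSMUST00000146359 had at most 0.592 and 0.226 FPKM. The coding isoforms ENSMUST00000178704, ENSMUST00000066237 and ENSMUST00000109659 had log2 differences of -0.17, -0.25 and 0.48, and none passed.

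Slc18a1 (ENSMUSG00000036330, chromosome 8, 69037711 to 69089235, minus strand) encodes the vesicular monoamine transporter of endocrine granules. It had 2.87, 2.91 and 2.67 FPKM in cold water and 3.44, 2.25 and 3.44 FPKM in control. The cold water libraries lay within the range of the controls. The log2 difference was -0.095 with a standard error of 0.26 (edgeR adjusted p = 0.984), and the isoform ENSMUST00000037478 held 93.1 to 99.3% of the summed FPKM. Its 5′ end overlaps the opposite-strand gene Atp6v1b2, at 50.6 FPKM on average, by 590 bases. No source used here says if reads were assigned by strand. Slc18a2, the vesicular transporter of neurons and mast cells, had 0.616 ± 0.0985 FPKM in cold water and 0.563 ± 0.380 FPKM in control.

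Hormone cell markers overlapped between the groups as well. The 29 enteroendocrine markers summed to 348 to 404 FPKM in cold water and 317 to 445 FPKM in control. Of 17 tested, 0 passed in either direction, 6 were higher and 11 lower, with a median log2 difference of -0.080. Chga was at -0.20 and Chgb at -0.080 (edgeR adjusted p = 0.884 and 0.978). Tph1 per 1000 FPKM of these markers was 6.31, 4.03 and 9.46 in cold water and 3.14, 5.29 and 8.53 in control, and these groups overlapped. Mast cells of mice also make serotonin through Tph1. Of 12 mast cell genes, 2 to 3 reached 1 FPKM in a library, Cma1 had a count of 0 in all 6, and their sum was 7.79 to 9.17 FPKM in cold water and 5.61 to 13.7 FPKM in control.

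The genes whose level followed Tph1 most closely over the 6 libraries, by Pearson correlation of log2(FPKM + 1), were Spg11 (0.98), Lnx2 (0.98), Laptm4b (0.97), Akirin1 (0.97) and Zswim5 (0.96). These are the highest of all tested genes over 6 libraries, given as a description. All 5 were lowest in control 1 and highest in cold water 3, as was Tph1.

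Among the breakdown genes Maoa had the higher RNA level, and its enzyme oxidises serotonin. Maoa (ENSMUSG00000025037, chromosome X, 16619698 to 16687818, plus strand) had 170.8, 160.6 and 139 FPKM in cold water and 161, 137 and 201 FPKM in control. The groups overlapped, with control 2 lowest and control 3 highest. Maoa differed by -0.10 in log2 (standard error 0.23), its interval -0.64 to 0.44 (edgeR adjusted p = 0.979). Maob (ENSMUSG00000040147, chromosome X, 16709282 to 16817366, minus strand) encodes the related enzyme that prefers phenylethylamine. It had 54.3, 66.8 and 46.6 FPKM in cold water and 68.3, 61.8 and 77.2 FPKM in control. Cold water 2 lay above control 2, and the other cold water libraries lay below every control. Maob differed by -0.31 in log2 (standard error 0.20), its interval -0.79 to 0.17 (edgeR adjusted p = 0.881). A single isoform held 100% of the summed FPKM of Maoa over all libraries and 99.9% of that of Maob.

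**Figure D4:**
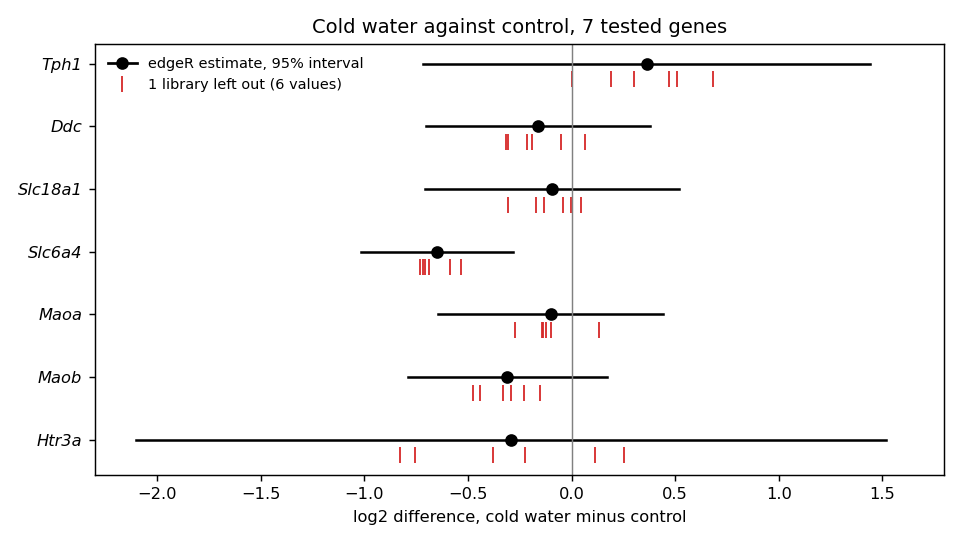
Log2 difference of the 7 tested genes, cold water minus control (horizontal axis), as edgeR's estimate with its unadjusted 95% interval in black, and the 6 estimates with 1 library left out as red ticks. The interval of Slc6a4 runs from -1.01 to -0.28, and those of the other 6 genes include 0.

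The receptor genes did not separate the groups, and Htr3a differed more between libraries of a group than between groups. Htr3a (ENSMUSG00000032269, chromosome 9, 48899213 to 48911099, minus strand) encodes a subunit of the serotonin-gated ion channel of enteric and sensory nerves. It had 2.71, 3.54 and 0.563 FPKM in cold water and 2.99, 4.86 and 0.689 FPKM in control. Cold water 3 and control 3 were low, and the groups overlapped. The log2 difference was -0.29 with a standard error of 0.76 (edgeR adjusted p = 0.984). Its interval ran from -2.10 to 1.52.

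The 12 enteric neuron markers summed to 55.1, 61.2 and 19.3 FPKM in cold water and 49.2, 88.2 and 15.3 FPKM in control. The 8 smooth muscle markers summed to 879, 1413 and 354 FPKM in cold water and 722, 1733 and 179 FPKM in control. As for Htr3a, control 2 was highest, cold water 2 next, and cold water 3 and control 3 lowest, for both lists. Per 1000 FPKM of the neuron markers, Htr3a was 49.2, 57.8 and 29.2 in cold water and 60.9, 55.1 and 45.1 in control. The lowest and highest libraries were closer on this scale, chosen after the data were seen, than in FPKM. The part of muscle and nerve content in the Htr3a values was not tested. None of 7 neuron genes and 8 muscle genes tested passed, with median log2 differences of -0.049 and 0.060.

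**Figure D5:**
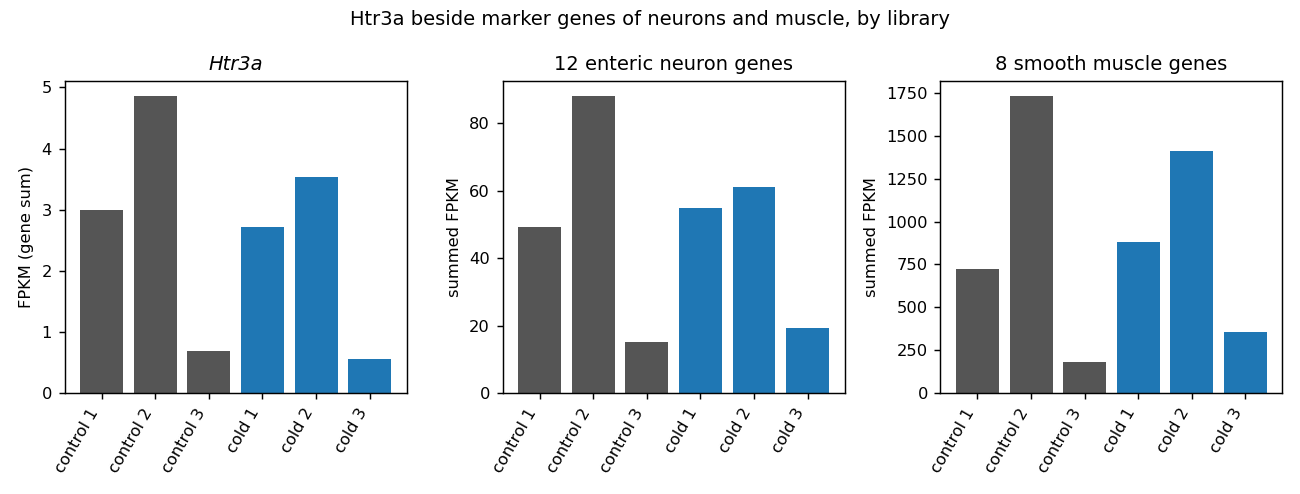
Htr3a (FPKM), the summed FPKM of 12 enteric neuron genes and the summed FPKM of 8 smooth muscle genes in each library, as bars from 0. In all 3 panels control 2 is highest, cold water 2 second, and control 3 and cold water 3 lowest.

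Both Htr3a isoforms code for the channel subunit and differ by 18 coding bases at the start of the last exon (chr9:48899991-48900008, minus strand, GRCm38). The isoforms also differ in the untranslated ends of their first and last exons. The stretch is shown from the GENCODE transcripts because it is what separates their coding parts. The 18 bases are in capitals between 15 coding bases on each side.
Htr3a ENSMUST00000003826: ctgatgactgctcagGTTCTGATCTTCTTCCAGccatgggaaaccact
Htr3a ENSMUST00000217289: ctgatgactgctcagccatgggaaaccact
The form without the 18 bases, ENSMUST00000217289, held 86.5% of the summed FPKM over all libraries. It had 2.66, 3.42 and 0 FPKM in cold water and 2.43, 4.29 and 0.484 FPKM in control. The longer form had 0.0556, 0.118 and 0.563 FPKM in cold water and 0.564, 0.575 and 0.205 FPKM in control. In cold water 3 all of the 25.0 fragments were given to the longer form. With so few fragments a library, the split between forms this alike is uncertain.

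Htr4 (ENSMUSG00000026322, chromosome 18, 62324204 to 62496577, plus strand) encodes the receptor that couples to cyclic AMP and promotes peristalsis. It had 0.387, 0.202 and 0.268 FPKM in cold water and 0.328, 0.279 and 0.136 FPKM in control. The groups overlapped, and the values rest on 11.2 to 37.98 fragments a library. Its isoform ENSMUST00000027560 had 0.0888 to 0.342 FPKM and ENSMUST00000236691 at most 0.0855 FPKM. Fitted with no filter, its log2 difference was 0.32 (edgeR adjusted p = 0.971). Of the 12 other receptor genes, Htr2b alone reached a mean of 1 FPKM. Htr2b, a receptor of muscle and pacemaker cells, had 0.869, 2.28 and 0.171 FPKM in cold water and 1.42, 3.04 and 0.315 FPKM in control (log2 difference -0.37, edgeR adjusted p = 0.983). Its 6 libraries stood in the same order as those of Htr3a. Htr3b, the partner subunit of Htr3a, had 0.109 ± 0.116 and 0.355 ± 0.288 FPKM. Htr1f and Htr5b had a count of 0 in all libraries.

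Around the cycle, no gene of the other lists that reached the level for the test passed edgeR's adjusted test. Of 17 further genes that carry, oxidise, conjugate or otherwise use serotonin, 10 were tested, 3 higher and 7 lower, with a median log2 difference of -0.14. Among those of smallest p-value were the alcohol dehydrogenase Adh1 (677 ± 85.5 against 843 ± 142 FPKM) and the aldehyde dehydrogenase Aldh1b1 (160 ± 30.4 against 186 ± 16.4 FPKM). Tph2, the hydroxylase of neurons, and the melatonin genes Aanat and Asmt had a count of 0 in all 6 libraries.

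Tetrahydrobiopterin is the cofactor of Tph1. All 8 of its genes were tested, 2 higher and 6 lower, with a median log2 difference of -0.099 and none past the test. Gch1, the first enzyme of its synthesis, had 6.44, 7.02 and 15.3 FPKM in cold water and 4.52, 5.92 and 6.67 FPKM in control, high in cold water 3 alone (log2 difference 0.80, standard error 0.43, edgeR adjusted p = 0.878). Spr, sepiapterin reductase, was at -0.42 and Pcbd1, which recycles the cofactor, at -0.34 (edgeR adjusted p = 0.878 for each).

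Tryptophan, the substrate, is taken up by epithelial transporters and mostly broken down along the kynurenine route. Of 19 such genes 12 were tested, 8 higher and 4 lower, with a median log2 difference of 0.27. Kyat1, a kynurenine aminotransferase, had 13.9, 25.0 and 36.0 FPKM in cold water and 13.1, 11.3 and 11.4 FPKM in control. The groups did not overlap in FPKM but did in CPM, and cold water 1 was close to the controls (log2 difference 1.11, standard error 0.38, edgeR adjusted p = 0.878). The apical tryptophan carrier Slc6a19 was at 0.47 and the aromatic amino acid carrier Slc16a10 at -0.28 in log2 difference (edgeR adjusted p = 0.899 and 0.898). Markers of plasma and B cells were higher in cold water for all 7 genes tested, none past the test, with sums of 1666 to 4640 against 1217 to 1828 FPKM, which overlapped and were highest in cold water 1. Their median log2 difference was 2.76, and 3 of the 7 had an unadjusted edgeR p under 0.05. Their part in these results was not tested.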

How the data were processed

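Ribosomal RNA was depleted from total RNA and paired-end libraries were sequenced on an Illumina HiSeq, per the labels' protocols. HISAT2 2.0.4, StringTie 1.3.4d, DESeq2, edgeR, FastQC 0.10.1 and cutadapt 1.9 are named, with no role, in the submitters' processing notes. Genome build and library strand were not given in the sources used here. All 38 transcripts of the 8 genes have the coordinates of GENCODE M21 on GRCm38. The authors deposited FPKM and an estimated count per transcript and library. Counts total 72690433 to 78668871 a library, and the lowest values move in steps of 3.755 to 3.765, by which counts were divided to give fragments.

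Counts were rounded and summed by gene name, genes with a mean of at least 1 FPKM were kept, and groups were compared with edgeR 4.0.16 (TMM scaling, quasi-likelihood test, R 4.3.3) at a Benjamini-Hochberg adjusted p under 0.05. CPM values use the same scaling. Transcripts were fitted alike. The steps were tested on simulated data. DESeq2 1.42.0 and limma 3.58.1 served as alternatives, as did other scalings, filters on low values, pseudocounts of 1 and 0.1 on log2 FPKM, a replicate block and leaving out each library.

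The genes and lists were chosen with earlier results of these data known. Named are all 8 genes, their isoforms with a mean of at least 0.1 FPKM or 5% of the gene's FPKM, overlapping genes, the 3 genes of smallest p per pathway list, and the 5 most like Tph1. Slc22a3, Slc18a2, Htr3b, Chga and Chgb were named outside this rule, after their values were seen. The result for 1 gene that the rule names is not reported here.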

Additional observations from a re-analysis of the deposited data

How the results depend on the processing

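None of the 8 genes and none of their isoforms passed under any alternative run. The log2 difference of Slc6a4 stayed below 0 throughout, from -0.73 to -0.54, with adjusted p from 0.325 to 0.9995. Of 296 alternative log2 differences of the genes and isoforms, 283 kept their direction and 13 changed it, each with 1 library left out. Over those fits the range was -0.31 to 0.063 for Ddc, -0.31 to 0.044 for Slc18a1, -0.27 to 0.13 for Maoa and -0.83 to 0.25 for Htr3a. It was -0.33 to 0.045, -0.67 to 0.038 and -0.067 to 0.83 for the Ddc isoforms ENSMUST00000178704, ENSMUST00000066237 and ENSMUST00000109659. It was -0.90 to 0.44 for ENSMUST00000217289 (Htr3a), -0.26 to 0.13 for ENSMUST00000026013 (Maoa) and -0.31 to 0.022 for ENSMUST00000037478 (Slc18a1). Ddc, Slc18a1 and Maoa turned without control 3, and Htr3a without cold water 3 or control 2.

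The count over all genes was 5. It was 3 with library totals, 3 with no filter, 2 at a mean of at least 0.1 FPKM, 3 with limma at either pseudocount, 3 with counts per fragment and 85 with DESeq2. Leaving out 1 library gave 0 to 1. Over all transcripts the count was 6. It was 2 with library totals, 0 with no filter (2813 at an unadjusted edgeR p under 0.05), 3 at 0.1 FPKM, 697 with DESeq2, 23 and 22 with limma at pseudocounts of 1 and 0.1, and 0 to 10 with 1 library left out. The cause was not tested.

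With the replicate number as a replicate block, 0 genes (800 at an unadjusted edgeR p under 0.05) and 0 transcripts (1016 at that p) passed. Same-numbered libraries deviated together with r of -0.023, 0.21 and 0.41, and 2 of 3 correlated best with their own number. Whether the numbers mark a pairing cannot be told from these values, and the main fit used no block. Tph1, Htr4 and the minor isoforms rest on few fragments, which limits what could be detected.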
